A study of Mus musculus with 15 samples.

Results

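The genes described here are 10 epithelial claudins and tight junction proteins, taken by symbol from the tables: the claudins Cldn1, Cldn3, Cldn4, Cldn7 and Cldn8, the four-pass membrane proteins Ocln (occludin) and Marveld2 (tricellulin), the plaque proteins Tjp3 (ZO-3) and Cgn (cingulin), and F11r (JAM-A), an immunoglobulin-type adhesion molecule. They are 10 of the 51826 genes in the tables. They were picked by name without a cutoff on level, but with earlier results of these data known. RNA-seq of mouse mammary tissue was available for 15 libraries of 13 mice. Sequencing batch 1 held 3 of the 4 groups, namely carcinomas of Trim24COE mice (animals 89, 273_5 and 3956), their carcinosarcomas (animals 64, 567 and 897) and control mammary glands (mice 133, 392, 417_3 and 517_3). The non-TRIM24 tumors (219, FVB001 and FVB002) were sequenced in batch 2 together with second libraries of gland 133 and carcinoma 3956.

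Trim24COE mice carry MMTV-Cre, which acts in mammary epithelium, and a single-copy transposon with the ubiquitin C promoter and a floxed stop cassette before Flag-tagged mouse Trim24, so the transgene and Cre are shared by carcinomas and carcinosarcomas. Control glands came from MMTV-Cre mice without the transgene. The non-TRIM24 tumors arose spontaneously, are labelled carcinomas and have an unknown genotype, and the strain is given as FVB in the sample labels and as FVB/129 in the design text. The paper describes its aging Trim24COE and control mice as virgin females, and does not say so for the non-TRIM24 tumors. No age is given in the sample labels. The paper lists the ages of the Trim24COE tumor mice, which differed from each other, and calls the control glands age-matched. Tumor classes follow the sample labels, but histology readings were not unanimous: a pathologist read tumors 89 and 3956, labelled carcinomas, as carcinosarcoma, and tumor 567, labelled carcinosarcoma, as spindle cell carcinoma, while another reading matched the labels. A call made from the RNA-seq also exists, with the class of the label for each tumor except 3956, which has none, and whether the labels rest on it is not given in the sources used here. Class and expression may therefore not be independent.

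Tight junctions seal the space between neighboring epithelial cells near their apical side. Claudins form the paired strands of the seal, occludin and tricellulin join the strands (tricellulin where 3 cells meet), and the ZO proteins and cingulin tie them to the actin cytoskeleton. Low expression of claudins 3, 4 and 7 gave the claudin-low class of breast cancer its name, a class to which many metaplastic tumors with mesenchymal features are assigned, and the levels in the present tumors bear on that description. The transcription factors Snai1, Snai2, Zeb1, Zeb2, Twist1 and Twist2 are known repressors of epithelial genes, and several bind E-boxes in claudin, occludin and E-cadherin promoters.

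Values are TPM (transcripts scaled to a common total per library), which account for transcript length, so levels can be compared between genes. Sequencing depth cannot be read from TPM because every library's TPM have an equal sum, and it was not estimated here. Count values per library, which the authors list for some genes of the batch 1 mice, were not used. The RNA of Trim24 itself was not higher in Trim24COE tumors than in control glands. First libraries had 10.60 to 14.54 TPM in carcinosarcomas, 13.91 to 24.08 TPM in Trim24COE carcinomas and 14.54 to 22.41 TPM in glands. The paper, by contrast, reports high Trim24 transcript levels in these tumors by qRT-PCR and states that its RNA-seq predicted them. It also reports overexpressed FLAG and TRIM24 protein in Trim24COE tumors by immunohistochemistry. This difference was not examined. Trim24 RNA was lowest in the non-TRIM24 tumors (5.34 to 10.04 TPM). The second libraries of carcinoma 3956 and gland 133, sequenced with those tumors, had 11.49 and 11.10 TPM, against 16.45 and 14.54 TPM in the first. The part of batch in this ranking was not tested. The second libraries of gland 133 and carcinoma 3956 differed from the first by a median of 0.21 and 0.17 on the log2(TPM + 1) scale over the 10 genes, and by at most 0.61 (Cldn8, gland 133) and 0.60 (Cldn1, carcinoma 3956). Control glands were not alike: the summed level of 10 adipocyte markers was between 26748 and 39359 TPM in glands 133 and 392 and between 1789 and 1971 TPM in glands 417_3 and 517_3. Non-TRIM24 tumor FVB001 held 55420 TPM of these markers. These are bulk samples, so fewer epithelial cells and less RNA per epithelial cell cannot be told apart.

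In the genome (GRCm38, GENCODE M21), Cldn4 (chr5:134945119-134946934, minus strand) and Cldn3 (chr5:134986214-134987472, plus strand) are direct neighbors, 39279 bases apart with no annotated gene between them. Ocln (chr13:100496507-100552718) and Marveld2 (chr13:100595957-100616971), both on the minus strand, are 43238 bases apart with no protein-coding gene between them. Cldn7 lies at chr11:69964779-69967885 (plus), Tjp3 at chr10:81273207-81291581 (minus), Cgn at chr3:94760069-94786492 (minus), F11r at chr1:171437535-171464603 (plus), Cldn1 at chr16:26356642-26371841 (minus) and Cldn8 at chr16:88560828-88563183 (minus). All 10 are annotated as protein-coding.

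RefSeq promoters (GRCm38.p6, 250 bases before to 50 after a start) were matched for 9 of the 10 genes, 13 promoters in all; Cldn8 had no entry. The E-box CAGGTG, searched on both strands so that CACCTG counts too, was found in 10 of the 13 promoters, those of Cldn3, Cldn4, Cldn7, Ocln, Marveld2, Tjp3 and F11r. These promoters are not all separate, since the 2 of Marveld2 overlap and share a match, as do the 2 of Ocln. By gene, 7 of the 9 held the E-box. Among all 32851 promoters of the table, 20.2% held it. The grainyhead site AACCNGTT, also searched on both strands, was found for Cgn, and 2.09% of all promoters held it. The 250 bases before the start of Cldn4, the claudin with the highest level in the carcinomas, and of Cgn are shown on the gene's strand, with the match in capitals (positions 134946935 to 134947184 of chromosome 5 and 94786483 to 94786732 of chromosome 3).
Cldn4, E-box at -14 to -9: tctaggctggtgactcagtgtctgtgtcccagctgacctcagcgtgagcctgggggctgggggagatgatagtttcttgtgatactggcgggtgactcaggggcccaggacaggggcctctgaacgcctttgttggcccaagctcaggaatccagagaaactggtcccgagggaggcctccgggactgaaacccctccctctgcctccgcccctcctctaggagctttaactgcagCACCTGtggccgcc
Cgn, grainyhead site at -29 to -22: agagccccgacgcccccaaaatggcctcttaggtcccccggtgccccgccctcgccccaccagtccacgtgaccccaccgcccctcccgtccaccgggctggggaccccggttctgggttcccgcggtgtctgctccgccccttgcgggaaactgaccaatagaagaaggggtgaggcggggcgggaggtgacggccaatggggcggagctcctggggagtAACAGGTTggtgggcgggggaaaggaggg

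For the other genes with an E-box, 30 bases around 1 match are shown. The matches were not compared with the repressor levels given further on. The matched letters are in capitals, and positions count from the start, with +1 its first base.
Cldn3, +32 to +37: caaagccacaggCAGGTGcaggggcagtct
Cldn4, second match, +12 to +17: cctttcttgttgCAGGTGcaggcaggaaag
Cldn7, downstream start, -57 to -52: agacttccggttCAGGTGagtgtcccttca
Ocln, downstream start, -68 to -63: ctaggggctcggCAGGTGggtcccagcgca
Marveld2, +17 to +22: ccggcggccgcgCAGGTGagtggggccgcg
Tjp3, upstream start, -108 to -103: gtcacaaggggtCAGGTGtacagacaggga
F11r, -122 to -117: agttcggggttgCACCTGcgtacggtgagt
The promoter of Cldn1 and that of the upstream start of Cldn7 held neither motif. A match is a description of the letters only.

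**Figure D1:**
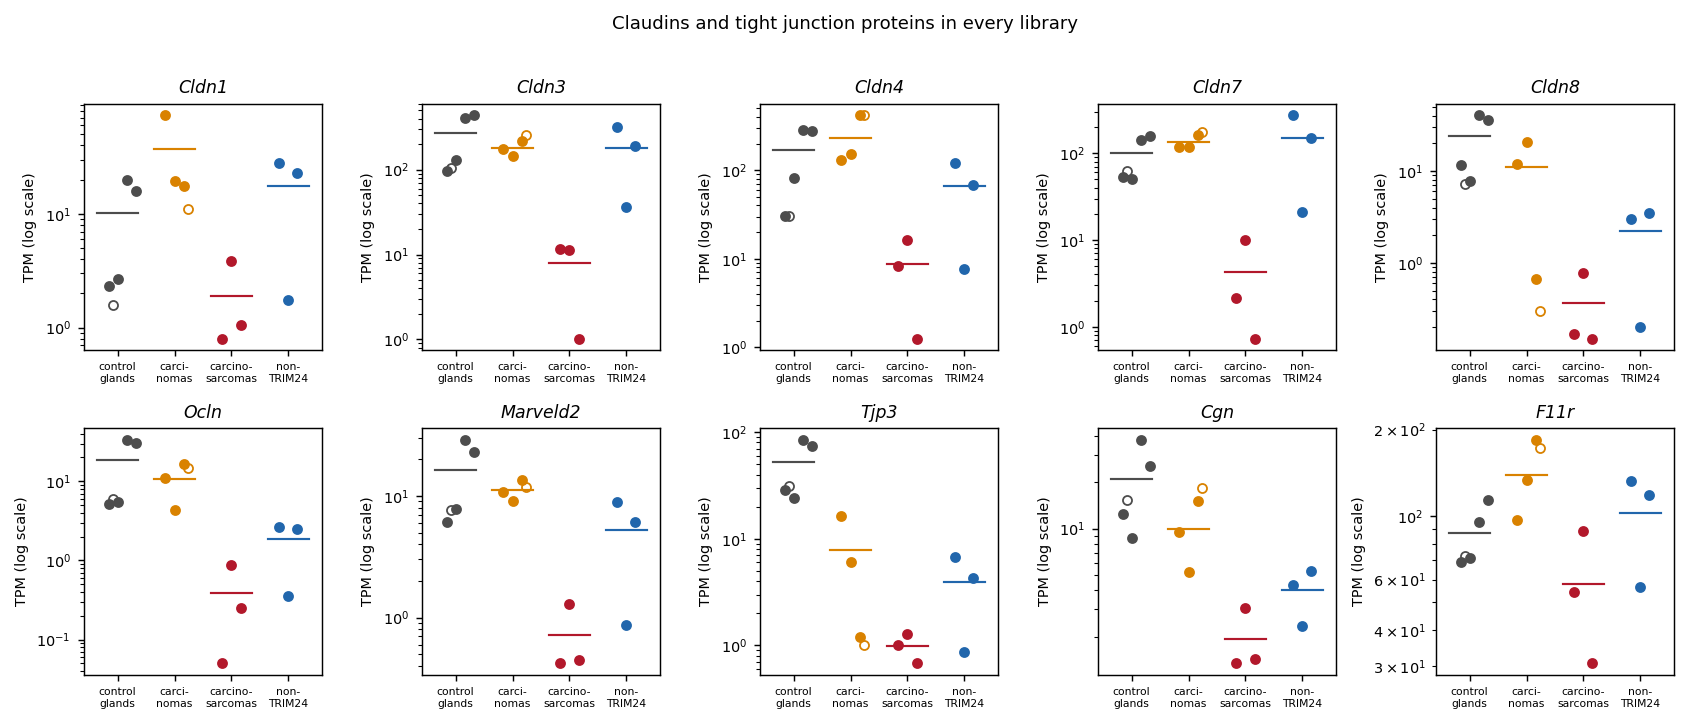
TPM (log axis) of the 10 genes in each library, by group. Points are mice, open points the second library of a mouse, and horizontal lines the mean over mice. The carcinosarcoma means lie lowest, but only for Cldn3 and Cldn7 does each carcinosarcoma lie below each mouse of the other groups. F11r stays above 30 TPM in each carcinosarcoma.

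Carcinosarcomas had little RNA of nearly all of these genes. Against the control glands, 8 of 10 fell in limma, Cldn3, Cldn4, Cldn7, Cldn8, Ocln, Marveld2, Tjp3 and Cgn, by 2.75 to 5.02 on the log2(TPM + 1) scale, and Cldn1 and F11r did not pass the threshold (adjusted p under 0.05 over all genes tested). All 10 genes passed the filter on low values, which asked for 1 TPM in 3 libraries. Cldn8 and Ocln did so through the glands alone, since both were under 1 TPM in each carcinosarcoma. Cldn1, Cldn7, Marveld2 and Tjp3 needed the glands too, since at least 1 carcinosarcoma was under 1 TPM for each gene. Of all 15287 genes tested, 13.1% fell and 9.83% rose (2008 and 1503 genes). This split turned to 1818 and 2411 with median-of-ratios scaling and to 1427 and 1865 with quantile normalization, and the 8 genes fell under both. The median difference of the 10 genes was -3.67 and that of all genes -0.12. In the same 8 genes each carcinosarcoma lay below each control gland, which held for 21.6% of all genes tested.

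Among the claudins, Cldn3 had 11.58, 11.26 and 1.02 TPM in carcinosarcomas 64, 567 and 897. It had 173.79, 144.90 and 219.65 TPM in carcinomas 89, 273_5 and 3956, and 97.06, 131.60, 401.29 and 443.18 TPM in glands 133, 392, 417_3 and 517_3. The highest carcinosarcoma was thus far under the lowest gland, while the carcinomas lay within the range of the glands. Cldn3 fell by 5.02 (SE 0.79, limma adjusted p = 0.00490) against the glands and by 4.71 (SE 0.70, limma adjusted p = 0.0449) against the carcinomas.

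Cldn7 had 2.16, 9.97 and 0.73 TPM in the carcinosarcomas, 117.86, 119.14 and 161.31 TPM in the carcinomas and 53.27, 50.08, 142.20 and 159.28 TPM in the glands. Carcinosarcoma 567 held the most of it among the carcinosarcomas, and the groups did not overlap with either comparison group. It fell by 4.51 (SE 0.69, limma adjusted p = 0.00433) against the glands and by 5.08 (SE 0.64, limma adjusted p = 0.0218) against the carcinomas. Cldn4, the most abundant of these genes in the carcinomas (mean 235 ± 161 TPM, SD, n = 3), had 8.23, 16.47 and 1.25 TPM in the carcinosarcomas, 130.99, 152.17 and 420.64 TPM in the carcinomas and 30.42, 81.86, 288.00 and 278.72 TPM in the glands. The groups did not overlap here either. It fell by 4.08 (SE 0.94, limma adjusted p = 0.0188) against the glands, and the difference of -4.84 (SE 0.80, limma adjusted p = 0.0601) from the carcinomas missed the threshold.

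Cldn1 and Cldn8 followed other patterns. Cldn1, a barrier-forming claudin, had 0.80, 3.82 and 1.05 TPM in the carcinosarcomas, 74.41, 19.55 and 17.45 TPM in the carcinomas and 2.34, 2.67, 19.91 and 16.01 TPM in the glands. Its carcinosarcoma values overlapped with those of glands 133 and 392, and the difference from the glands was -1.64 (95% interval -3.37 to 0.09, limma adjusted p = 0.152). Without glands 133 and 392, a choice made after the data were seen, Cldn1 fell by 2.85 (limma adjusted p = 0.00558), where 25.4% of all genes fell. Against the carcinomas the difference of Cldn1 was -3.55 (SE 0.64, limma adjusted p = 0.0795), with each carcinosarcoma below each carcinoma.

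Cldn8 had 0.17, 0.77 and 0.15 TPM in the carcinosarcomas and 11.68, 7.87, 40.90 and 35.70 TPM in the glands, and it fell by 3.93 (SE 0.58, limma adjusted p = 0.00384). In the carcinomas it was present in 89 and 273_5 (11.99 and 20.72 TPM) but at 0.66 TPM in 3956, within the range of the carcinosarcomas. Because it reached 1 TPM in 2 of the 6 Trim24COE tumors and the filter asked for 3, it was the 1 gene of the 10 not tested between the tumor classes.

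The strand proteins that join the claudins fell as well. Ocln had 0.05, 0.87 and 0.25 TPM in the carcinosarcomas, 10.89, 4.40 and 16.37 TPM in the carcinomas and 5.11, 5.46, 33.68 and 30.22 TPM in the glands. Marveld2, its neighbor on chromosome 13, had 0.42, 1.29 and 0.45 TPM in the carcinosarcomas, 10.82, 9.0 and 13.54 TPM in the carcinomas and 6.11, 7.80, 29.04 and 22.85 TPM in the glands. For both genes the carcinosarcomas lay below all carcinomas and glands. Ocln fell by 3.41 (SE 0.70, limma adjusted p = 0.0126) against the glands and differed by -2.94 (SE 0.49, limma adjusted p = 0.0604) from the carcinomas. Marveld2 fell by 3.12 (SE 0.55, limma adjusted p = 0.00747) against the glands and by 2.84 (SE 0.32, limma adjusted p = 0.0194) against the carcinomas.

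The plaque proteins differed from each other. Tjp3 was low in both Trim24COE tumor classes. It had 1.02, 1.28 and 0.68 TPM in the carcinosarcomas and 16.48, 6.01 and 1.19 TPM in the carcinomas, against 28.83, 24.13, 85.13 and 73.84 TPM in the glands. Each of the 6 tumors was below each gland, and carcinoma 3956 was at the level of the carcinosarcomas. Cgn had 1.34, 3.05 and 1.43 TPM in the carcinosarcomas, 9.58, 5.21 and 15.20 TPM in the carcinomas and 12.43, 8.73, 37.79 and 25.51 TPM in the glands, so here the carcinosarcomas were lowest and the carcinomas overlapped with the glands. Tjp3 fell by 4.57 (SE 0.48, limma adjusted p = 0.00131) and Cgn by 2.75 (SE 0.51, limma adjusted p = 0.00880) in carcinosarcomas against glands. Between the tumor classes neither passed the threshold, with differences of -1.71 for Tjp3 (limma adjusted p = 0.325) and -1.84 for Cgn (limma adjusted p = 0.156). The authors' own test on counts does list Tjp3 among the genes that differ, as higher in the carcinomas than in the carcinosarcomas. Apba3, a protein-coding gene on the opposite strand, overlaps Tjp3, an antisense gene, Wbscr25, overlaps Cldn3, and a small nuclear RNA gene, Gm24261, overlaps Marveld2; whether the authors' counting used strand is not given in the sources used here.

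F11r had the highest level of the 10 genes in carcinosarcomas, and its difference from the glands did not pass the threshold. It had 54.30, 88.85 and 30.67 TPM in the carcinosarcomas, 97.02, 133.55 and 184.56 TPM in the carcinomas and 68.94, 71.17, 95.66 and 113.92 TPM in the glands. The carcinosarcomas overlapped with the glands and lay below the carcinomas. The difference from the glands was -0.68 (95% interval -1.55 to 0.19, limma adjusted p = 0.227) and from the carcinomas -1.32 (95% interval -2.34 to -0.30, limma adjusted p = 0.245). F11r is also made by endothelial cells and leukocytes, and its mean in the carcinosarcomas was high (57.9 ± 29.3 TPM, SD, n = 3), with Cldn4 next (8.65 ± 7.62 TPM).

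Between carcinosarcomas and Trim24COE carcinomas, 3 of the 9 genes tested fell in limma (Cldn3, Cldn7 and Marveld2) and none rose, whereas 0.585% of all 14193 genes fell and 0.113% rose. Cldn1, Cldn7, Ocln, Tjp3 and Marveld2 passed the filter on low values only with the carcinomas counted, since at least 1 carcinosarcoma was under 1 TPM for each gene. The median difference was -2.94 for the 9 genes and -0.10 for all genes. Each carcinosarcoma lay below each carcinoma for 8 of the 10 genes, Cldn8 and Tjp3 being the exceptions, and for 14.4% of all genes tested. All 9 genes had an unadjusted p under 0.05, as had 2126 of all 14193 genes. When carcinosarcoma 64 or carcinoma 89 was left out, 0 of all 15019 or 14569 genes passed in limma, while Cldn3, Cldn7 and Marveld2 differed by -5.16, -4.92 and -2.72 without 64 and by -4.73, -5.16 and -2.85 without 89. Without carcinosarcoma 897, 14 of all 14984 genes passed, Cldn3 among them.

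**Figure D2:**
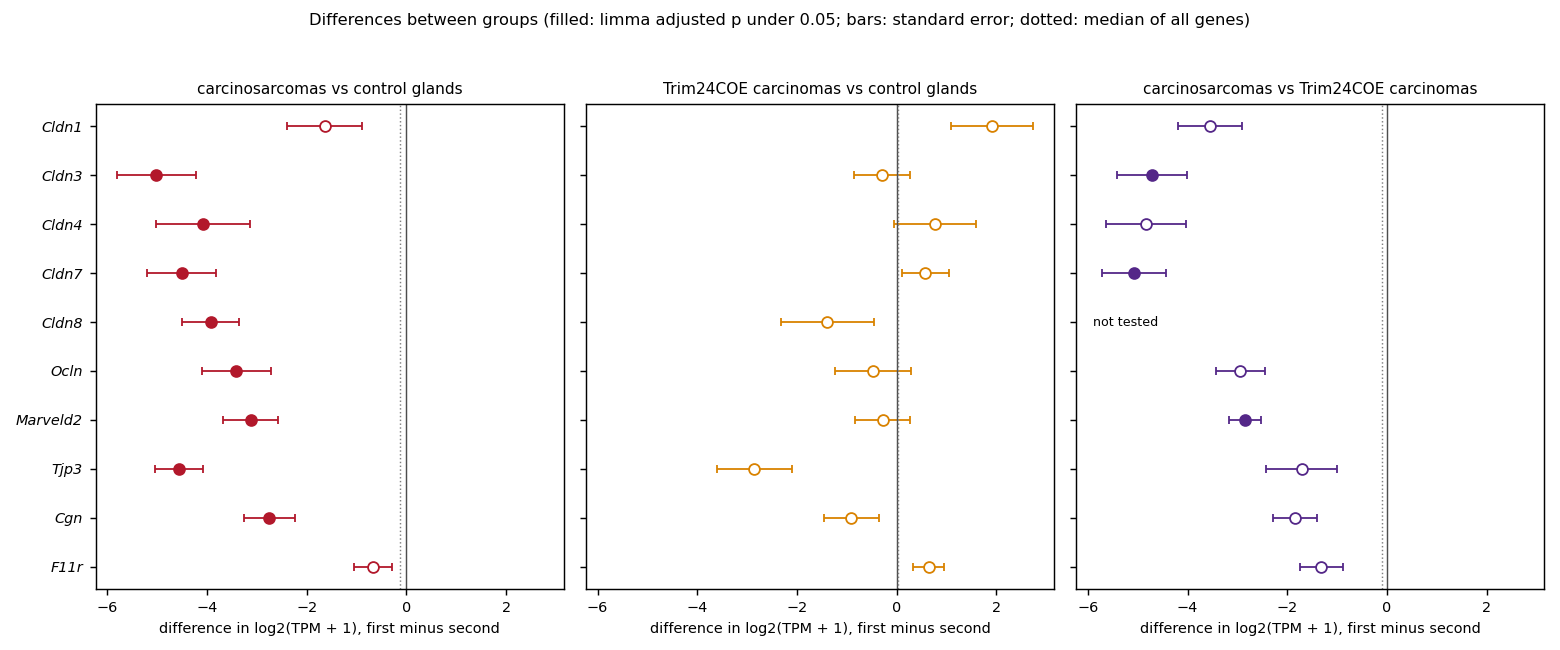
Difference in log2(TPM + 1) of each gene with its standard error in 3 comparisons; filled points have a limma adjusted p under 0.05 and the dotted line is the median of all genes. The carcinosarcoma differences reach -5.02 against glands and -5.08 against carcinomas, and the carcinomas show no filled point against glands.

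In the Trim24COE carcinomas most of these genes lay within the range of the control glands or near it. In limma 0 of the 10 passed the threshold against the control glands (2 had an unadjusted p under 0.05, Cldn1 and Tjp3, as had 21.5% of all genes), while 1.92% of all 15479 genes fell and 1.58% rose. The median difference was -0.29, against 0.02 for all genes. Tjp3 had the smallest p, with a difference of -2.86 (SE 0.75, limma adjusted p = 0.0784). It passed when all 3 groups of batch 1 shared one fit (limma adjusted p = 0.0332), where 4.03% of all genes fell. Intervals were wide: the difference of Cldn3 was -0.30 (95% interval -1.60 to 1.00), of Cldn4 0.76 (-1.13 to 2.65), of Cldn7 0.57 (-0.51 to 1.64), of Cldn1 1.91 (0.02 to 3.80), of Cldn8 -1.39 (-3.56 to 0.77), of Ocln -0.47 (-2.23 to 1.28), of Marveld2 -0.28 (-1.54 to 0.98), of Cgn -0.91 (-2.18 to 0.37) and of F11r 0.64 (-0.07 to 1.35). The signs of the Cldn4 and Cldn7 differences turned without glands 133 and 392, to -0.48 and -0.20. Cldn3 then fell by 1.25 (limma adjusted p = 0.0406), where 5.62% of all genes fell.

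The 3 carcinomas had different junction profiles. Carcinoma 3956 had the most Cldn4, F11r and Ocln of the 3 and hardly any Cldn8 or Tjp3, which its second library repeated (423.57 TPM of Cldn4, 0.30 TPM of Cldn8 and 1.01 TPM of Tjp3). Carcinoma 89 had the most Cldn1 (74.41 TPM, against 11.16 to 19.55 TPM in the other carcinoma libraries) and the most Tjp3, and carcinoma 273_5 the most Cldn8. With the 6 Trim24COE tumors as a single group, only Tjp3 of the 10 genes fell (by 3.71, SE 0.68, limma adjusted p = 0.00479), against 9.13% of all 15196 genes. Cldn8 (-2.66, limma adjusted p = 0.0655) and Cgn (-1.83, limma adjusted p = 0.0593) followed. The count depended on the samples: 7 of the 10 genes fell in the fit of all 15 libraries with a batch term, where 15.7% of all genes fell, 3 without carcinoma 89 (11.4% of all genes), and 2 without carcinoma 273_5 (9.01%) or 3956 (7.91%).

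The non-TRIM24 tumors were split. Tumors 219 and FVB002 had 322.15 and 189.39 TPM of Cldn3, 276.00 and 150.22 TPM of Cldn7, and 120.79 and 69.04 TPM of Cldn4, whereas FVB001 had 35.88, 21.23 and 7.62 TPM. FVB001 was the lowest of the 3 for each of the 10 genes, and it also held the most adipocyte marker RNA; the part of fat in its levels was not tested. Ocln was low in all 3 (2.65, 0.36 and 2.53 TPM in 219, FVB001 and FVB002), as were Tjp3 (6.75, 0.86 and 4.25 TPM), Cgn (4.34, 2.33 and 5.31 TPM) and Cldn8 (3.02, 0.20 and 3.51 TPM), and for these 4 genes each non-TRIM24 tumor was below each gland, as for 23.9% of all genes tested. Only for Cldn3 and Cldn7 was each carcinosarcoma below each non-TRIM24 tumor. For the other genes these ranges overlapped, as for Cldn4, with 1.25 to 16.47 TPM in the carcinosarcomas.

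In fits with a batch term over all 15 libraries, 0 of the 10 genes passed the limma threshold in any of the 3 comparisons with non-TRIM24 tumors. Against control glands, 3 had an unadjusted p under 0.05 (10.7% of all genes), Cgn with a difference of -2.21 (limma adjusted p = 0.290), Tjp3 with -2.49 (limma adjusted p = 0.368) and Ocln with -2.06 (limma adjusted p = 0.442), and 0.107% of all 16775 genes passed in either direction. Between Trim24COE carcinomas and non-TRIM24 tumors, 2 had an unadjusted p under 0.05 (17.7% of all genes), Ocln with a difference of 1.96 (limma adjusted p = 0.273) and Cgn with 1.56 (limma adjusted p = 0.240), and 0.0179% of all genes passed. Between carcinosarcomas and non-TRIM24 tumors, 5 had an unadjusted p under 0.05 (16.4% of all genes), led by Cldn7 with -4.70 (limma adjusted p = 0.10) and Cldn3 with -4.57 (limma adjusted p = 0.117), and 0.0775% of all genes passed. Without FVB001 these last 2 genes passed (Cldn7 -5.77, limma adjusted p = 0.0193, and Cldn3 -5.49, limma adjusted p = 0.0422), as did 1.09% of all genes. The batch term rests on the second libraries of 2 mice, which this fit counts as separate samples. With the libraries of a mouse linked, Tjp3 passed against glands (-3.43, limma adjusted p = 0.0442; 0.709% of all genes) and Cldn7 (-4.49, limma adjusted p = 0.0179) and Cldn3 (-4.14, limma adjusted p = 0.0251) for carcinosarcomas against non-TRIM24 tumors (4.76% of all genes).

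Of 30 other claudins in the table, 9 reached a mean of 1 TPM in a group. Cldn5, the claudin of endothelial cells, had 55.03, 142.93 and 53.39 TPM in the carcinosarcomas and 26.92, 6.76 and 46.93 TPM in the carcinomas. Its difference between the tumor classes did not pass (1.80, limma adjusted p = 0.311), and the summed level of 10 endothelial markers was likewise 235 to 487 TPM in carcinosarcomas and 107 to 279 TPM in carcinomas. Cldn12 had 14.85 to 21.24 TPM in the carcinosarcomas, 14.20 to 28.39 TPM in the carcinomas and 8.44 to 23.09 TPM in the glands, with a difference from the glands of 0.36 (limma adjusted p = 0.540) in carcinosarcomas.

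A further pair of claudins fell in both Trim24COE tumor classes against the shared control glands. Cldn10 fell by 3.09 in carcinosarcomas (limma adjusted p = 0.00331) and by 3.14 in carcinomas (limma adjusted p = 0.0254), and Cldn15 by 2.51 (limma adjusted p = 0.00741) and 2.90 (limma adjusted p = 0.0239). Cldn15 was highest in the fat-rich samples, at 58.79 TPM in FVB001 and 28.36 TPM in gland 392. Cldn23, near the epithelial claudins in its pattern, had 0.33, 0.58 and 0.19 TPM in the carcinosarcomas and 1.67 to 7.67 TPM in the glands, and fell by 1.88 (limma adjusted p = 0.0229). Cldn19 fell too in carcinosarcomas, by 0.96 (limma adjusted p = 0.0242), from at most 1.27 TPM in a gland. Cldn19 and Cldn23 were under 1 TPM in each carcinosarcoma, so both passed the filter on low values through the glands alone. Cldn10 needed the glands too in both tumor classes, as did Cldn15 in the carcinomas. Cldn2, Cldn6 and Cldn34c1 did not pass in carcinosarcomas against glands: Cldn6 differed by -1.40 (limma adjusted p = 0.0557) and Cldn34c1 by -1.13 (limma adjusted p = 0.101), and Cldn2 was too low to be tested.

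**Figure D3:**
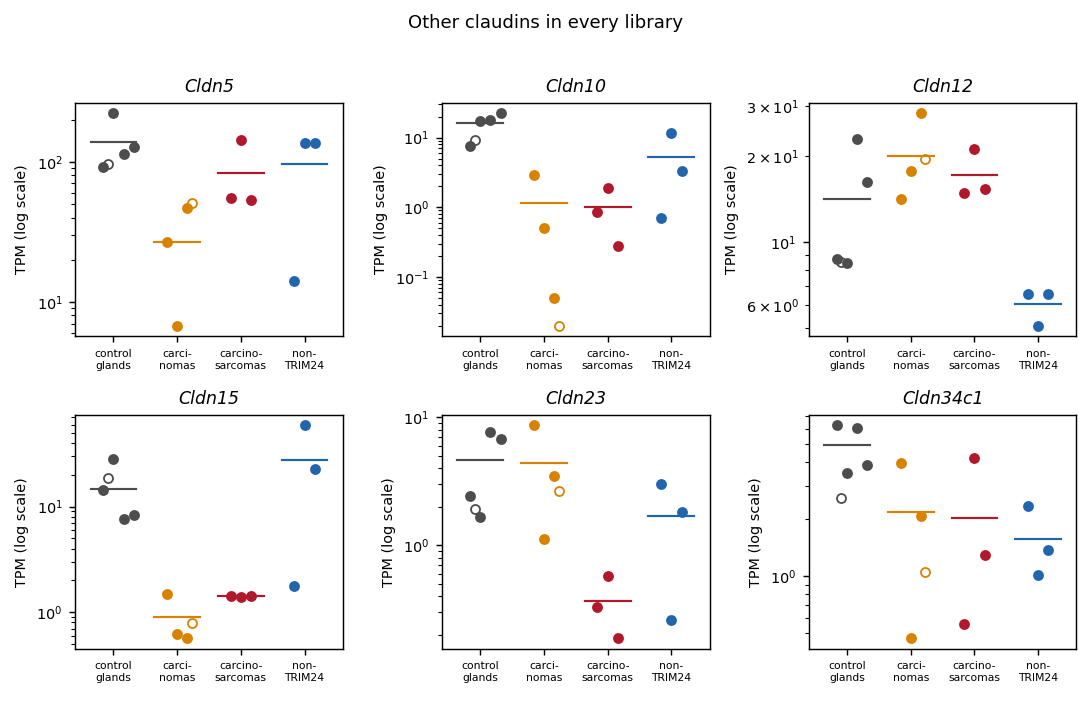
TPM (log axis) of 6 claudins outside the 10 genes in each library, by group; points are mice, open points second libraries and lines means over mice. Cldn5 and Cldn12 remain well above 1 TPM in the carcinosarcomas, whereas Cldn10 and Cldn15 lie below the glands in both Trim24COE tumor classes.

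Of 28 other tight junction genes, 27 were tested between carcinosarcomas and glands; 13 fell and 0 rose, with a median difference of -1.32. Among the losses were Crb3 (-3.77, limma adjusted p = 0.00164), an apical polarity protein, Marveld3 (-3.97, limma adjusted p = 0.00197), a relative of occludin, Ildr1 (-3.59, limma adjusted p = 0.00331), a protein of tricellular contacts, and Jam2 (-2.70, limma adjusted p = 0.00192), an endothelial and epithelial adhesion molecule. Against the carcinomas, 5 of 26 fell and 0 rose, namely Patj (-2.98, limma adjusted p = 0.0123), Cxadr (-3.46, limma adjusted p = 0.0124), Ildr1 (-2.99, limma adjusted p = 0.0175), Marveld3 (-3.53, limma adjusted p = 0.0190) and the tricellular protein Lsr (-4.51, limma adjusted p = 0.0201). Marveld3 and Ildr1 were under 1 TPM in each carcinosarcoma, so both passed the filter on low values only through the glands or the carcinomas. Crb3 and Patj needed those groups too, since at least 1 carcinosarcoma was under 1 TPM for each gene. Between carcinomas and glands 0 of 27 passed in limma. Tjp1, the ZO-1 scaffold shared by many cell types, had 12.76, 18.67 and 23.92 TPM in the carcinosarcomas and 22.75 to 81.28 TPM in the glands; it was singled out after its values were seen.

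Epithelial genes outside tight junctions moved as far. Of 24 such genes, 23 were tested between carcinosarcomas and glands and 21 fell, with a median difference of -3.95, and against the carcinomas 12 of 23 fell, with a median of -3.59. The losses included Elf5, a luminal transcription factor (-5.80, limma adjusted p = 0.00143), the membrane protease Prss8 (-4.05, limma adjusted p = 0.00127) and the grainyhead factor Grhl1 (-4.09, limma adjusted p = 0.00213) against glands, and Spint1 (-4.36, limma adjusted p = 0.00734) and Grhl2 (-3.30, limma adjusted p = 0.0123) against carcinomas. Each of these named losses passed the filter on low values only with the glands or the carcinomas counted, since at least 1 carcinosarcoma was under 1 TPM. The 2 that did not fall against the glands were Krt8 (-0.66, limma adjusted p = 0.651) and Krt18 (-1.73, limma adjusted p = 0.0961). In carcinomas against glands 1 of the 24 rose, Krt7 (3.35, limma adjusted p = 0.0239), and 0 fell.

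Krt8 and Krt18, unlike Krt7 and Krt19, did not follow the claudins in carcinosarcoma 897. The 5 claudins together had 4.20 TPM in it, the lowest of all 15 libraries, beside 1377 TPM of Krt8 and Krt18, more than in glands 133 (412 TPM) and 392 (744 TPM). Krt7 (0.95 TPM, the lowest of all 15 libraries) and Krt19 (28.89 TPM, against 116.53 to 855.78 TPM in first gland libraries) were low in it. The sum of Krt8 and Krt18 gives 0.305 TPM of claudins per 100 TPM of the 2 keratins, against 9.56 and 11 in carcinosarcomas 64 and 567, 15.6 to 60.2 in the first libraries of the carcinomas, 36.8 to 47.3 in those of the glands and 21.7 to 24.9 in the non-TRIM24 tumors. Epcam and Cdh1, adhesion molecules of epithelial cells, gave another picture: per 100 TPM of the 2 genes, there were 170, 76.5 and 104 TPM of claudins in carcinosarcomas 64, 567 and 897 and 101 to 124 TPM in the first libraries of the glands. Carcinoma 89, with 36.4, was the lowest. These ratios were chosen after the values were seen and are a description without a test.

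**Figure D4:**
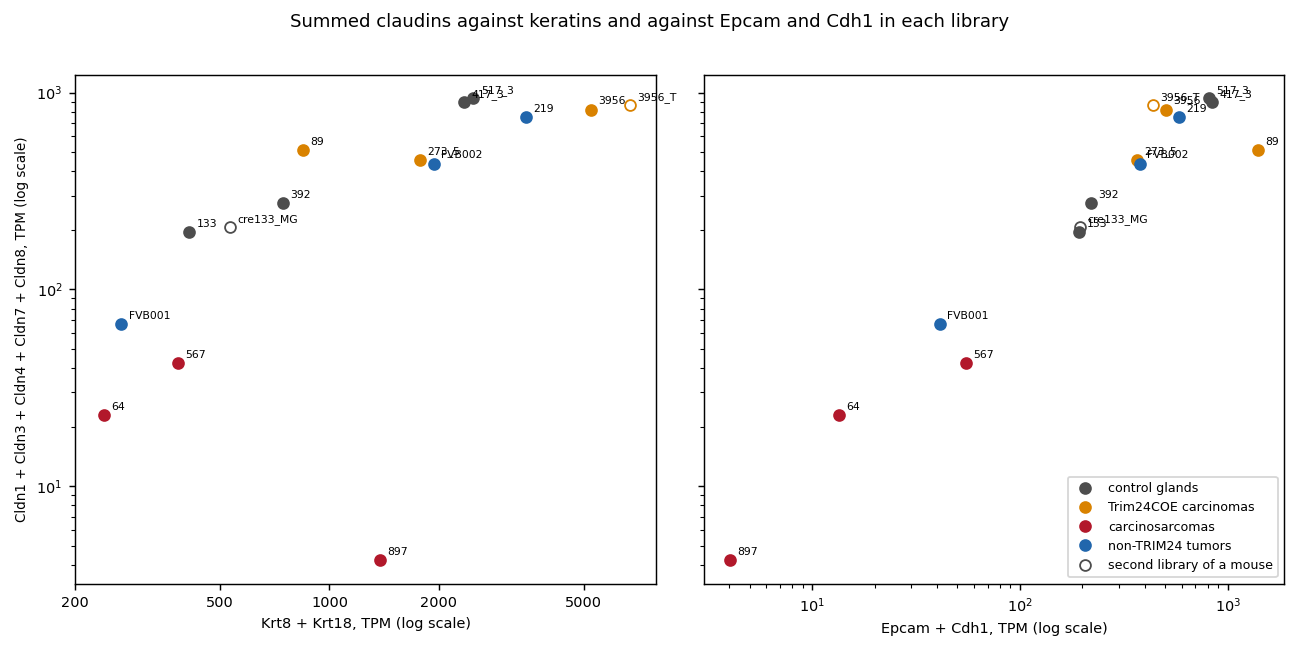
Summed TPM of Cldn1, Cldn3, Cldn4, Cldn7 and Cldn8 in each library (vertical, log scale) against Krt8 plus Krt18 (left) and Epcam plus Cdh1 (right), both in TPM on log scales; each point is 1 library with its name. On the left, carcinosarcoma 897 lies far below libraries with similar keratin levels (1377 TPM), and on the right it lies at the low end of both measures (4.20 and 4.02 TPM).

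With the mean of Krt7, Krt8, Krt18 and Krt19 as a covariate, 2 of the 10 genes fell in carcinosarcomas against glands, Cldn8 and Tjp3, where 8.54% of all genes fell, and the direction of Cldn1 turned (0.78, limma adjusted p = 0.448). The other genes differed by -3.44 (Cldn3), -3.10 (Cldn7), -1.59 (Cldn4), -1.43 (Cgn), -1.35 (Marveld2), -1.07 (Ocln) and -0.19 (F11r) in that fit and did not pass. With the mean of the adipocyte markers as a covariate, 9 fell, the 8 named above and Cldn1 (-3.35, limma adjusted p = 0.00738), and 22.1% of all genes fell.

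Of the 6 repressors, Snai1 and Twist1 rose in carcinosarcomas against glands, by 2.83 (SE 0.38, limma adjusted p = 0.00261) and 2.24 (SE 0.67, limma adjusted p = 0.0450). Snai1 had 62.82, 63.16 and 53.38 TPM in the carcinosarcomas, 21.54, 26.78 and 39.55 TPM in the carcinomas and 4.53 to 12.10 TPM in the glands, and these 3 ranges did not overlap. Zeb1 had 12.07, 16.91 and 15.44 TPM in the carcinosarcomas, 2.28 to 6.86 TPM in the carcinomas and 4.32 to 9.73 TPM in the glands, with a difference of 0.93 from the glands (limma adjusted p = 0.0699). Against the carcinomas 0 of the 6 passed in limma, with 1.50 for Zeb1 (limma adjusted p = 0.184) and 1.04 for Snai1 (limma adjusted p = 0.197). Snai1 was also high in non-TRIM24 tumor 219 (35.10 TPM). The relation between repressor levels and junction gene levels was not tested. Snai2, Zeb2 and Twist2 did not pass in carcinosarcomas against glands, and 0 of the 6 passed in carcinomas against glands. Fibroblasts and endothelial cells also express these factors, and the part of such cells was not tested.

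**Figure D5:**
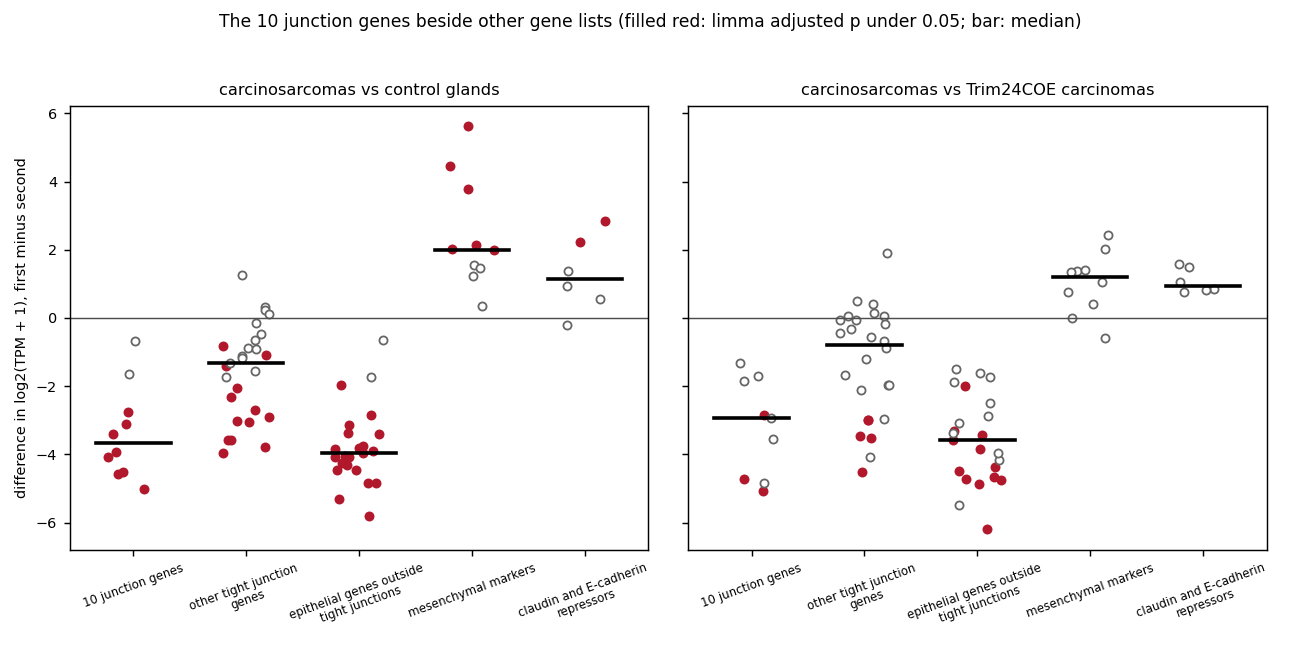
Differences in log2(TPM + 1) of single genes in 5 lists for carcinosarcomas against control glands (left) and against Trim24COE carcinomas (right); filled red points have a limma adjusted p under 0.05 and bars are list medians. The 10 genes (medians -3.67 and -2.94) lie near the other epithelial genes (-3.95 and -3.59), and the other tight junction genes (-1.32 and -0.78) spread up to 0 and above.

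Markers of other cell types differed between the same groups. In carcinosarcomas against glands, 6 of 10 mesenchymal markers rose, led by Fn1 (5.63, limma adjusted p = 1.6e-04), with summed levels of 6067 to 11346 TPM in carcinosarcomas, 1233 to 6040 TPM in carcinomas and 1169 to 2290 TPM in glands. Of 9 macrophage markers, 6 rose in carcinosarcomas (1957 to 3552 TPM, against 382 to 940 TPM in glands) and 4 in carcinomas (1439 to 2751 TPM). Of 8 myoepithelial markers, 4 fell in carcinosarcomas and 2 in carcinomas, and of 10 adipocyte markers 2 fell in carcinosarcomas (173 to 250 TPM). In carcinosarcomas 1 of 10 endothelial and 2 of 9 lymphocyte markers fell (13.1% of all genes did), 0 of 7 skeletal muscle markers passed, and 1 of 6 keratinocyte markers was tested and did not pass. The part of these cells in the levels of the junction genes was not tested.

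Over the 10 mice of batch 1, the genes whose log2(TPM + 1) followed the mean of the 10 junction genes most closely included Map7 (Pearson r = 0.990), a microtubule-associated protein of epithelial cells, Epb41l5 (0.988), Ripk4 (0.988), Ildr1 (0.987), Esrp1 (0.986), an epithelial splicing regulator, Rab25 (0.986), an epithelial trafficking GTPase, St14 (0.985), the protease matriptase, Kdf1 (0.984) and Tmem184a (0.984), out of 16040 genes ranked. Map7 had 0.15, 0.73 and 0.18 TPM in the carcinosarcomas, 11.75 to 16.28 TPM in the carcinomas and 8.32 to 40.53 TPM in the glands. Within the 10 genes, the correlation of each with the mean of the other 9 was highest for Marveld2 (0.987) and Cldn3 (0.970) and lowest for F11r (0.726), Cldn1 (0.744) and Tjp3 (0.744). These correlations describe 10 mice of 3 groups; within-group and between-group parts were not separated.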

How the data were processed

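The deposited tables hold TPM for 51826 genes in 15 libraries; per the authors' methods, reads were aligned to GRCm38 with STAR and TPM estimated with RSEM, whereas the submitters' processing notes also name TopHat and Cufflinks with mm10. Depth was not estimated, so counting error is not given. Whether counting used strand is not given in the sources used here. The authors' own tests on counts were not used here, beyond their listing of Tjp3 given above.

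Groups came from the sample labels. limma 3.58.1 (R 4.3.3; lmFit, eBayes with trend) was run two-sided on log2(TPM + 1) over genes reaching 1 TPM in a number of libraries equal to the size of the smaller group, with Benjamini-Hochberg adjustment over all genes tested and a threshold of 0.05. The added 1 TPM understates changes of low genes. Within batch 1, each mouse entered with its first library only. Those with non-TRIM24 tumors used all 15 libraries and a batch term, in which a repeat counts as a library. Mice are the replicates; second libraries were not counted as mice elsewhere. The fits were tested on simulated data.

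The 10 genes and the lists were chosen with earlier results of these data known. The text names the 10 genes, other claudins with a mean of at least 1 TPM in a group, up to 4 genes per list by adjusted p (a few others, such as Lsr, Krt8, Krt18 and Tjp1, were named after their values were seen), and the 10 genes most correlated with the mean of the 10, of which 1 is not reported here. Alternatives changed pseudocount, filter, scaling, covariates, libraries, batch term and mice.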

Additional observations from a re-analysis of the deposited data

Results flagged for a closer look

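Among 20 sets of values tested for a sample far from the others (10 genes in the 4 control glands and in the 6 Trim24COE tumors), 3 were flagged, all in the Trim24COE tumors. Chance flags about 1 in 20 when the values come from a single group. The 6 tumors pool carcinomas and carcinosarcomas, which differ in these genes, so that rate need not hold for them. For Cldn1, carcinoma 89 (74.41 TPM) was separated from the next tumor by 0.745 of the range. For Tjp3, carcinoma 89 (16.48 TPM) was also apart, by 0.663 of the range. For Cldn4, carcinoma 3956 (420.64 TPM) was apart by 0.640 of the range, and its second library gave 423.57 TPM.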

How the results depend on the processing

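In carcinosarcomas against glands, 6 to 8 of the 10 genes fell when single mice were left out, 6 with no filter, 2 with the keratin covariate and 9 without glands 133 and 392 (added after the data were seen). The share of all genes that fell, given above, was also larger without glands 133 and 392 than in the main fit. With the keratin covariate this share was smaller than in the main fit. The counts of the 10 genes thus moved in the same direction as those of all genes in these fits. Ocln and Cldn4 were the genes lost without carcinosarcoma 64, and Cldn4 without carcinosarcoma 897. Cldn1 turned to 0.78 with the keratin covariate. Between the tumor classes, 0 passed with no filter and 0 with the keratin covariate, fits in which no other gene passed either (35695 and 14193 tested). Between these classes 5 passed in the fit of all 15 libraries (1.56% of all genes), and 0 to 3 with mice left out (0% to 1.96%). The keratin covariate turned Cgn (0.30) and F11r (0.15) there. In carcinomas against glands, 1 passed in the fit of all 15 libraries (17.4% of all genes). With all 3 groups of batch 1 in one fit 1 passed too (7.29%), and it was Tjp3 in both fits. Without glands 133 and 392, 1 passed (7.77%). Cldn3 was at 0.05 in the fit of all 15 libraries, Cldn4 at -0.37 with the keratin and -0.59 with the adipocyte covariate, and Cldn7 at -0.21 with the latter; without glands 133 and 392 they were at -1.25, -0.48 and -0.20. With single mice left out, Cldn3 lay between -0.69 and 0.04 and Marveld2 between -0.63 and 0.07. For all 6 tumors against glands, 2 passed with median-of-ratios scaling (19.7% of all genes), 2 with quantile normalization (18.3%) and 4 with the keratin covariate (17.3%). There were 7 in the fit of all 15 libraries (30.8%), 2 without glands 133 and 392 (16.2%), and 1 to 3 with mice left out (11.3% to 19.6%). Without a batch term, 3 passed for non-TRIM24 tumors against glands (11.1% of all genes). Against non-TRIM24 tumors, 1 passed for carcinomas (12.9%) and 2 for carcinosarcomas (15.8%). With libraries of a mouse linked, 1, 0 and 2 passed in these comparisons (0.709%, 0.0298% and 4.76%). Leaving out mice gave 0 to 2 for carcinosarcomas against non-TRIM24 tumors (0.0618% to 1.09% of all genes). The cause of these changes was not tested. Median-of-ratios scaling moved the median of all genes in carcinosarcomas against glands from -0.12 to 0.08, and quantile normalization to 0.04. Precision was limited by 3 or 4 mice a group, and the depth of the libraries was not estimated.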
